A study of Rattus norvegicus with 56 samples.

Results

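The microRNA miR-155-5p (rno-miR-155-5p in the count table) was followed in the rat hippocampus from 24 h to 12 m after brain injury or a sham operation. It is 1 of the 367 mature miRNAs with a row in the deposited count table, and its row, found by name, holds a value for all 56 libraries. Fluid percussion injury, in which a fluid pulse strikes the exposed dura, served as the model of traumatic brain injury (TBI), and sham rats went through surgery without it. Rats were examined after 24 h, 2 w, 1 m, then 2, 3 and 6 m, and finally 12 m (labelled as 1 year). Each of these 7 intervals had 4 TBI rats and 4 sham rats of its own, so that every point of the time course came from different animals. The labels name hippocampal tissue and give no allele, strain, sex or age. In such bulk tissue, fewer cells of a type and less RNA per cell cannot be told apart.

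miR-155 is cut from the non-coding host transcript Mir155hg, and macrophages, microglia and lymphocytes make it when Toll-like receptors and NF-kB signaling are switched on. In these cells it is known to lower negative regulators of cytokine signaling such as Socs1 and Inpp5d (SHIP1), and so to favor the inflammatory state. miR-146a, also driven by NF-kB, is known for the opposite role, since it represses the adaptor Traf6 and the kinase Irak1.

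The mature sequence is shown because counts of miR-155-5p are counts of this short RNA, and its seed (bases 2 to 8, in capitals) sets which targets it pairs with. The sequences of the 3 miRNAs with which it is compared within each library follow it. They are RefSeq entries on GRCr8.
miR-155-5p: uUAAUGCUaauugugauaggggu
miR-21-5p: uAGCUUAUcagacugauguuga
miR-146a-5p: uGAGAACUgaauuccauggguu
miR-142-5p: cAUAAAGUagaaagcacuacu
The mature miR-155-5p has 23 bases and lies at chr11:37261117-37261139 on the plus strand of GRCr8. It falls inside Mir155hg, annotated as a long non-coding RNA at chr11:37259928-37262157. None of the other mature rat miRNAs in the RefSeq table had the same seed (0 of them). The seeds of miRNAs in the count table without a RefSeq entry of the same name were not checked. Of the 7 seed positions, miR-146a-5p shared 3 with miR-155-5p, and miR-21-5p and miR-142-5p shared 2 each. By name, 331 of the 367 miRNAs in the count table matched a RefSeq entry.

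The libraries held between 2083604 and 12468979 counts, except TBI replicate 1 at 2 m with 69628. Levels are given as counts scaled to library size (CPM), here with TMM normalization. Its factors were computed within each interval's 8 libraries, so group means and excess compared between intervals share no common factors. The shallow library held 0 counts of miR-155-5p, which allows up to 43.1 CPM (3 counts of its total), more than any rat had after 24 h. A level within the range of the other rats was therefore not detectable at that depth, and results at 2 m are given with and without this library. All 7 neuronal miRNAs of the marker list were present at every interval, led by miR-9a-5p with a median of 193983 CPM. Summed choroid plexus and ependyma markers (miR-204-5p, miR-211-5p, miR-448-5p, miR-449a-5p, miR-34b-5p and miR-34c-5p) lay between 2018 and 6867 CPM in all libraries but 3, which were sham replicates 3 and 4 at 3 m with 22732 and 19989 CPM, and sham replicate 3 at 12 m with 23565 CPM.

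miR-155-5p was a low-abundance miRNA even where it was highest. At 24 h it ranked 156th by mean level of the 233 miRNAs tested, and at 12 m 194th of 225. The count behind a value ran from 192 to 713 in TBI libraries at 24 h and from 12 to 198 in the other libraries that held any. By counting error alone, a group's mean count allowed a coefficient of variation (CV) between 5.39% and 20.5% for a single library. These figures cover counting error only, since reads amplified without molecular identifiers are not independent molecules.

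At 24 h, miR-155-5p was raised in every injured rat. The 4 TBI rats had 64.8, 72.5, 51.98 and 48.2 CPM, and the 4 sham rats 6.99, 8.85, 11.3 and 9.15 CPM. The lowest TBI rat stood well above the highest sham rat, and the groups did not overlap. The fold change was 6.76 with a 95% interval from 4.87 to 9.39, or 2.76 on the log2 scale (SE 0.22, n = 4 and 4, adjusted p = 1.39e-05 over 233 miRNAs, quasi-likelihood test of edgeR with adjustment by Benjamini and Hochberg). No other miRNA had a larger fold change or a smaller p at 24 h. Of the miRNAs tested, 1.72% passed the threshold of 0.05 at this interval, and in 3.86% every TBI rat exceeded every sham rat.

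**Figure D1:**
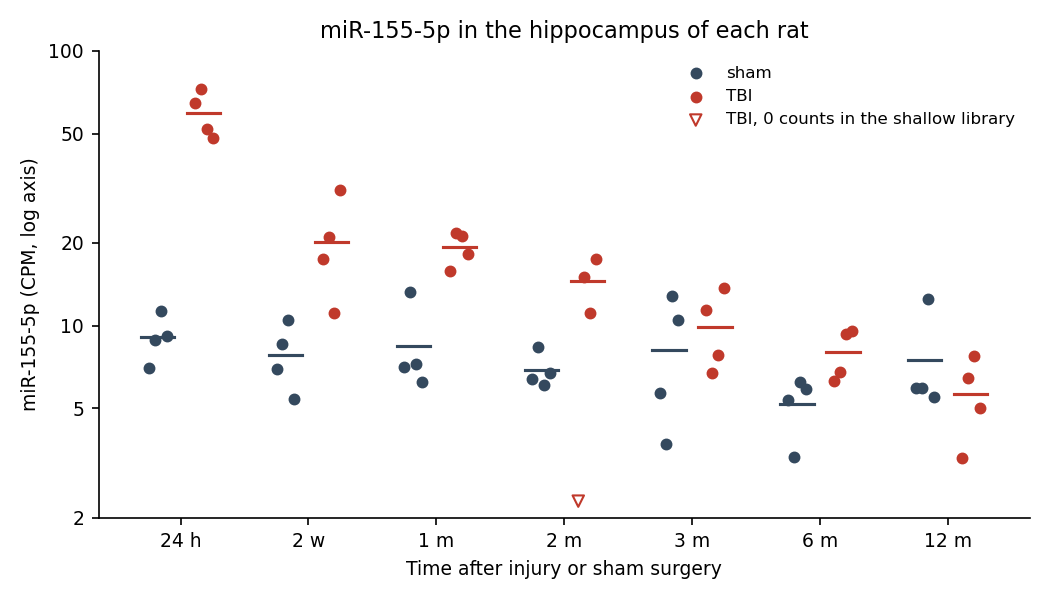
miR-155-5p in each rat in CPM (log axis) at each interval, with sham rats in dark blue, TBI rats in red and a line at each group's mean over libraries with any count. The open triangle is the TBI library at 2 m with 0 counts and is drawn at the foot of the axis. TBI rats lie above all sham rats at 24 h, 2 w, 1 m and 6 m, and the groups overlap at 3 m and 12 m.

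By 2 w the level in TBI rats was 17.5, 21.0, 11.1 and 31.1 CPM, against 6.93, 8.55, 10.5 and 5.42 CPM in sham rats. No TBI rat overlapped the sham rats, although TBI replicate 3, with 11.1 CPM, was close to the highest sham rat. The fold change was 2.56 (95% interval 1.51 to 4.34), the largest among the 227 miRNAs tested, with an adjusted p of 0.158 (quasi-likelihood test of edgeR). None of the 227 passed that test at 2 w (0%, with 21 at an unadjusted p under 0.05), and in 4.41% every TBI rat exceeded every sham rat. The call depended on the tool: the adjusted p was 0.00372 in edgeR's likelihood ratio test and 0.00336 in the Wald test of DESeq2. Without TBI replicate 3 the quasi-likelihood adjusted p was 0.0154, and this was the only 1 of the 8 fits with a rat left out that passed. The highest adjusted p among these 8 quasi-likelihood fits was 0.564.

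At 1 m the values were 15.8, 21.8, 21.2 and 18.2 CPM in TBI rats and 7.09, 13.2, 7.24 and 6.22 CPM in sham rats. The TBI rats were closely grouped and again all above the sham rats, of which replicate 2 stood apart from the other 3. The fold change was 2.34 (95% interval 1.57 to 3.50, adjusted p = 0.0569 from the quasi-likelihood test of edgeR), the second largest of 240 after that of miR-146a-5p. At this interval 0.417% of miRNAs passed the threshold, and in 5.83% the TBI rats were all above the sham rats. The adjusted p was 0.00557 without sham replicate 2, and 0.0306 without TBI replicate 2. These were the only 2 of the 8 quasi-likelihood fits with a rat left out that passed, and the highest adjusted p was 0.206. DESeq2's Wald test put it at 0.00139, and the likelihood ratio test at 0.00337.

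At 2 m the 3 TBI rats with deep libraries had 15.1, 11.1 and 17.4 CPM and the 4 sham rats 6.38, 8.36, 6.08 and 6.74 CPM. These 3 were all above the sham rats, and the fourth is the shallow library with 0 counts. With all 8 libraries the fold change was 2.08 (95% interval 1.41 to 3.08, adjusted p = 0.197 from the quasi-likelihood test of edgeR), the largest of 236 miRNAs, and without the shallow library the log2 value was 1.07 in place of 1.06 (adjusted p = 0.252). None passed (0%, with 20 at an unadjusted p under 0.05), and in 2.97% every TBI rat exceeded every sham rat. Unlike the count model, a comparison of mean log2 CPM gave the library of 0 counts full weight, and the difference of -0.39 with it (two-sided exact permutation p = 1) became 1.04 without it (p = 0.0286, the smallest that 3 rats against 4 allow in this exact permutation test).

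At 3 m the TBI rats had 11.4, 6.71, 7.85 and 13.7 CPM and the sham rats 5.71, 3.70, 12.9 and 10.5 CPM. Sham replicates 3 and 4, the higher pair, overlapped the TBI rats, while replicates 1 and 2 lay below all of them. The log2 fold change was 0.38 (SE 0.38, 95% interval -0.48 to 1.24), with an adjusted p of 0.728 in the quasi-likelihood test of edgeR. Here 0% passed, with 13 at an unadjusted p under 0.05, and in 2.73% of miRNAs the TBI rats were all above the sham rats.

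The higher sham pair at 3 m were also the libraries with the high choroid plexus and ependyma markers. Without them the 3 m difference in miR-155-5p was 1.00 on the log2 scale (SE 0.33, adjusted p = 0.921 and unadjusted p = 0.0151 in the quasi-likelihood test of edgeR). In all 7 sham groups the rat with the highest miR-155-5p was the one with the highest sum of these markers, and in 3 of the 7 TBI groups it was. The part of these markers in the sham level was not tested, and the comparison was chosen after the values had been seen.

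At 6 m the TBI rats had 6.29, 6.80, 9.32 and 9.60 CPM and the sham rats 5.38, 3.32, 6.25 and 5.90 CPM. No TBI rat fell below a sham rat, but the lowest TBI rat (6.29) and the highest sham rat (6.25) were less than the counting error of either apart. The log2 fold change was 0.53 (SE 0.24, unadjusted p = 0.0507 and adjusted p = 0.947 from the quasi-likelihood test of edgeR). Between mean log2 CPM the difference was 0.59, with a two-sided exact permutation p of 0.0286, the smallest that 4 rats against 4 allow. The summed blood and immune cell markers were also higher at 6 m (1560 to 1964 CPM in TBI and 1256 to 1564 CPM in sham rats), and their part in the result was not tested. At 6 m 0% of miRNAs passed, with 10 at an unadjusted p under 0.05, and 0.893% had the TBI rats all above the sham rats.

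At 12 m the mean of the TBI rats was the lower one, within the spread between rats. The TBI rats had 3.31, 6.48, 7.79 and 5.03 CPM and the sham rats 5.95, 5.93, 12.5 and 5.52 CPM, with overlap of the groups. The log2 fold change was -0.47 (SE 0.36, 95% interval -1.28 to 0.33, adjusted p = 0.524 from the quasi-likelihood test of edgeR), and 0% of miRNAs passed with 18 at an unadjusted p under 0.05. In 1.78% the TBI rats were all above the sham rats. Sham replicate 3, at 12.5 CPM, was the library with 23565 CPM of choroid and ependyma markers, and without it the difference was -0.02 on the log2 scale (SE 0.27).

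The joint fit of all 56 libraries asked whether the injury effect on miR-155-5p differed between intervals. It did (adjusted p = 9.75e-06 over 244 miRNAs for the 6 interaction terms in the quasi-likelihood test of edgeR), where 2.87% of miRNAs passed and miR-155-5p had the lowest p. Against the effect at 24 h, that at 1 m was smaller by 1.56 on the log2 scale, written as -1.56 (SE 0.36, adjusted p = 0.00479), with 6.97% of miRNAs passing. The differences from 24 h were -1.65 at 2 m (adjusted p = 0.0113, 1.64% passing), -2.45 at 3 m (adjusted p = 1.55e-04, 1.23% passing), -2.22 at 6 m (adjusted p = 0.00345, 1.23% passing) and -3.20 at 12 m (adjusted p = 5.12e-07, 1.23% passing). At 2 w the difference of -1.40 (SE 0.38) had an adjusted p of 0.0502, and 0.82% passed. With each rat of 24 h or 2 w left out, its quasi-likelihood adjusted p ranged from 0.00345 to 0.392, and 6 of 16 fits passed. All these contrasts share the 24 h rats. Without the 3 libraries rich in choroid markers, the difference at 3 m was -1.75 (adjusted p = 0.124), and that at 2 w was -1.39 (adjusted p = 0.0212).

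As a rate, the injury effect on miR-155-5p fell by 0.34 on the log2 scale with each doubling of the time after injury (SE 0.041, 95% interval -0.42 to -0.26, adjusted p = 9.96e-09 in the quasi-likelihood test of edgeR). miR-155-5p had the lowest p of 244 miRNAs in this fit, and 1.23% passed. The fitted line started at 2.78 on day 1 and reached 0 at 297 days, or 9.75 months, a crossing for which no interval was computed. With the 24 h rats left out, the slope from 2 w to 12 m was -0.36 (SE 0.084, adjusted p = 0.0118, 2.07% passing). This later slope rested on few rats: the adjusted p was 0.0689 without sham replicate 3 at 12 m (slope -0.29), 0.0631 without TBI replicate 4 at 2 w (slope -0.31), and 0.0897 without the 3 libraries rich in choroid markers (slope -0.26).

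**Figure D2:**
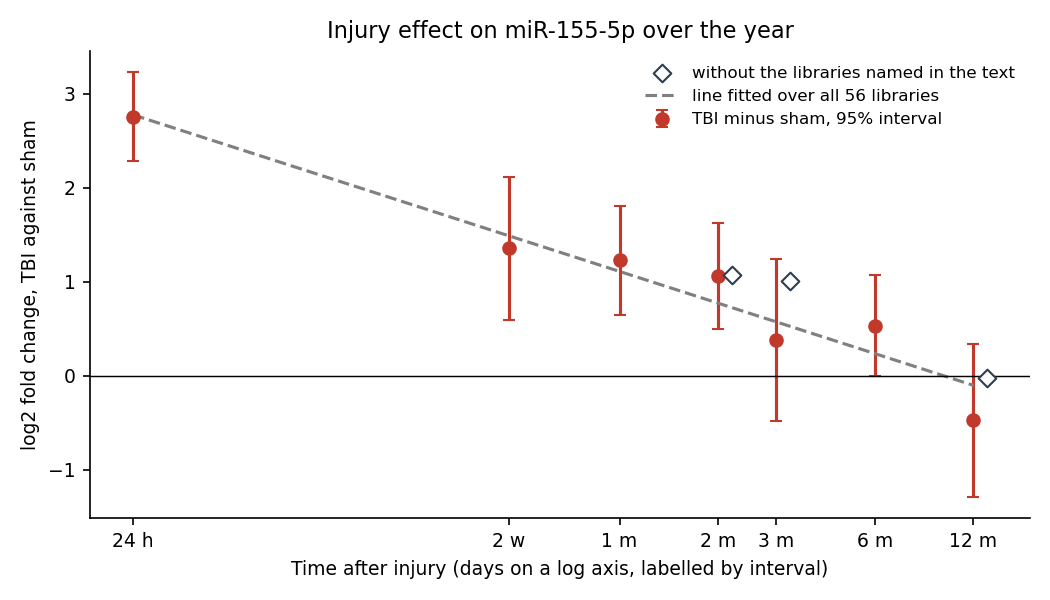
log2 fold change of miR-155-5p in TBI against sham rats (red points, with 95% intervals from edgeR) over time after injury on a log axis, and the line fitted over all 56 libraries (dashed). The points fall from 2.76 at 24 h to -0.47 at 12 m. Open diamonds give the value without the shallow library at 2 m and without the libraries rich in choroid markers at 3 m (1.00) and 12 m (-0.02).

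In linear units most of the excess was gone by the second interval. TBI rats exceeded sham rats by 50.3 CPM at 24 h (SE 5.71) and by 12.3 CPM at 2 w (SE 4.31), so that 24.5% of the excess remained (SE 9.01). At 1 m 21.5% remained (SE 4.87), and at 2 m 8.01% (SE 7.81), or 15.3% (SE 4.17) without the shallow library. The share was 3.46% at 3 m (SE 5.29), 5.56% at 6 m (SE 2.22) and -3.64% at 12 m (SE 3.88), where the negative sign means a lower mean in TBI rats. Without the libraries rich in choroid markers it was 10.4% at 3 m (SE 3.97) and -0.30% at 12 m (SE 1.93).

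**Figure D3:**
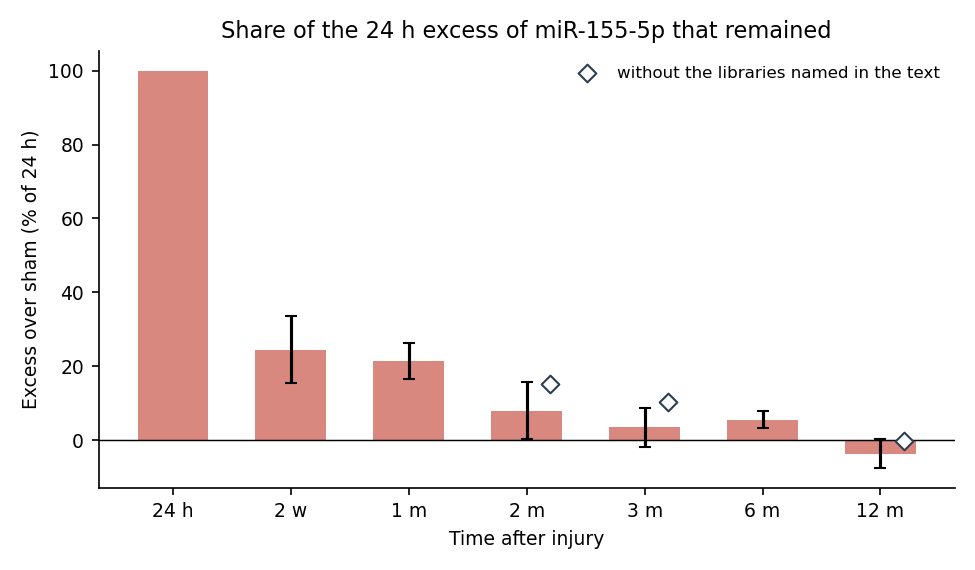
Excess of mean miR-155-5p in TBI over sham rats as a percent of that at 24 h, with bars for the share, error bars of 1 delta-method SE, and open diamonds for the value without the shallow library (2 m) or without the libraries rich in choroid markers (3 m and 12 m). The share left is 24.5% at 2 w and 21.5% at 1 m, and the error bars include 0 at 3 m and 12 m, with the 12 m bar below 0.

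Had the excess fallen at a constant rate between neighbouring measurements, it would have halved in 6.41 days between 24 h and 2 w (SE 1.68). Between 2 w and 2 m the corresponding halving time was 29.0 days with an SE of 26.7, and without the shallow library 68.4 days with an SE of 61.7. The second value has an error close to its own size, so these times do not separate the phases by a test. No interval between 24 h and 2 w was sampled, so the course within this span was not measured.

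No difference over the year was detected in the sham level to which the TBI rats came back. In sham rats the group means ran from 5.21 ± 1.31 CPM (SD, n = 4) at 6 m to 9.08 ± 1.77 CPM (SD, n = 4) at 24 h, and the quasi-likelihood test across the 7 sham groups gave an adjusted p of 0.487, where 27.1% of miRNAs passed. In TBI rats the same test gave an adjusted p of 2.33e-10 for miR-155-5p, the lowest of 240 miRNAs, and 27.1% passed there too. Ordered by mean, the TBI groups followed the time course from 24 h (59.4 ± 11.3 CPM, SD, n = 4) through 2 w (20.2 ± 8.34), 1 m (19.3 ± 2.76), 2 m (10.9 ± 7.73), 3 m (9.92 ± 3.23) and 6 m (8.003 ± 1.70) to 12 m (5.65 ± 1.93). The order in sham rats was 24 h, 1 m, 3 m, 2 w, 12 m, 2 m and 6 m. Among the 12 pairs of neighbours in these orders, TBI at 24 h and 2 w alone had an unadjusted p under 0.05 (two-sided exact permutation p = 0.0286), and after adjustment over the 12 pairs it was 0.343, with 0 pairs passing. With 4 rats against 4 and 12 pairs, no adjusted p could have passed for a single pair. For the other 5 TBI pairs the exact permutation p lay between 0.0571 and 0.971. Without the shallow library the mean at 2 m was 14.6 ± 3.19 CPM (SD, n = 3), and the order was the same. With scaling by total count and all libraries, 9 of the 12 pairs stayed neighbours in the same order, since 3 m (9.95 CPM) and 2 m (9.93 CPM) changed places in TBI rats.

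The spread between rats was larger than counting error in nearly every group. The CV of miR-155-5p in TBI rats was 19.0% at 24 h, where counting alone gave 5.39%, and 41.3% at 2 w, where it gave 8.82% and the highest rat had 2.80 times the level of the lowest. It was 70.8% at 2 m with the shallow library and 21.9% without it, so that 2 w was the widest TBI group only in the second case. At 1 m the TBI CV was 14.3%. In sham rats the CV was lowest at 2 m (14.7%, against 14.1% from counting) and highest at 3 m (51.5%, against 16.3%), followed by 12 m (45.0%) and 1 m (38.1%). The 3 sham groups with the widest spread each held the sham rats with high choroid markers or, at 1 m, replicate 2 with 5912 CPM of them. Sham replicate 3 at 24 h had more (6867 CPM), in a group whose CV was 19.5%, among the lower ones. The SD of log2 CPM was larger in TBI than in sham rats at 2 of the 7 intervals, 2 w and 2 m. The mean difference was 0.31 (two-sided exact sign-flip permutation p = 0.875 over 128 patterns), and -0.0507 without the shallow library (exact permutation p = 0.484). Without the 3 libraries rich in choroid markers TBI rats had the larger SD at 4 of the 7 intervals, with a mean difference of 0.43 (exact permutation p = 0.328). This last setting still held the shallow library. The mean SD in TBI rats was 0.74 with that library and 0.38 without it. In the joint fit the biological CV of miR-155-5p was 0.275, near the 0.287 of the trend at its abundance, and ranked 38th from the top of 244 miRNAs.

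**Figure D4:**
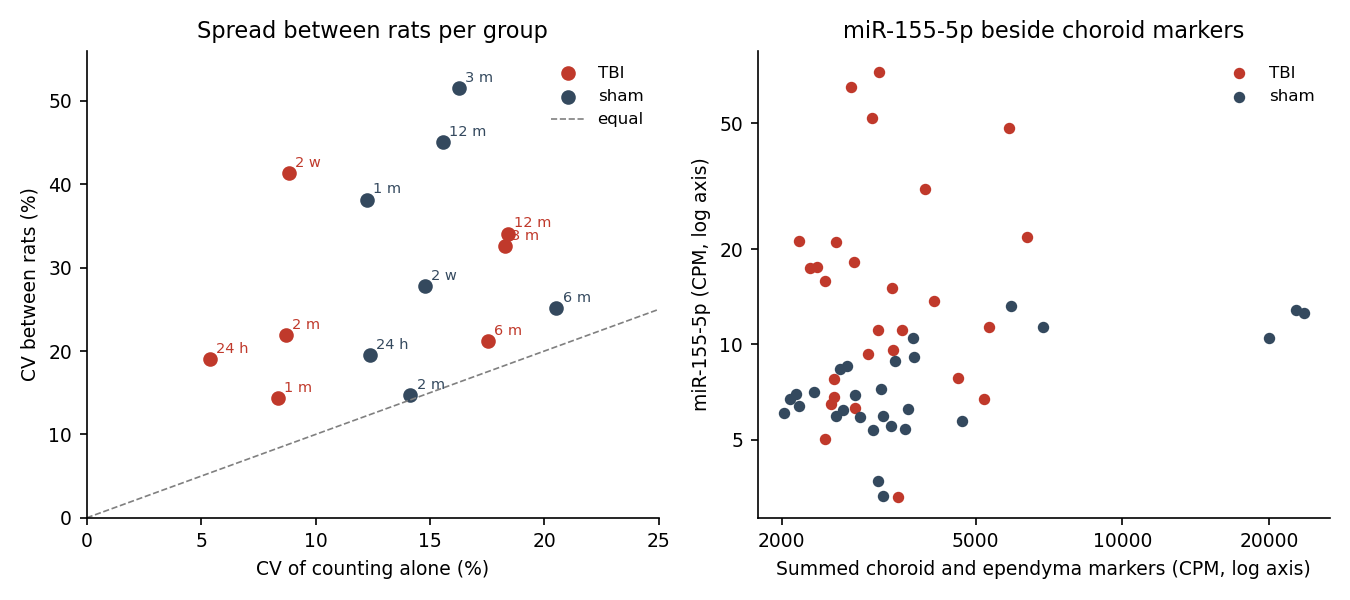
Left, CV of miR-155-5p between the rats of each group against the CV expected from counting alone (both in percent), with TBI groups in red, sham groups in dark blue, equality dashed, and the 2 m TBI group without its shallow library. Right, miR-155-5p against the summed choroid and ependyma markers per library (CPM, log axes, without the library of 0 counts), where the 3 sham libraries at 19989 to 23565 CPM of markers have 10.5 to 12.9 CPM of miR-155-5p.

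Ratios of counts within one library do not depend on how libraries are scaled. miR-21-5p, induced in reactive glia and immune cells, rose with miR-155-5p at 24 h. Per 1000 reads of miR-21-5p, TBI libraries at 24 h held 2.62 to 3.68 reads of miR-155-5p (median 3.09) and sham libraries 1.21 to 1.94 (median 1.61), without overlap. This ratio was 1.97 times higher in TBI rats at 24 h, 1.76 times at 2 w and 2.196 times at 1 m, without overlap at any of them. The two-sided exact permutation p was 0.0286 at these 3 intervals and 0.10 after adjustment over the 21 ratios tested, so no ratio passed. As 0.0286 is the smallest p that 4 rats against 4 allow, a single ratio could not have passed, however far apart the groups. At 2 m the ratio to miR-21-5p was 1.74 times that in sham rats (exact permutation p = 0.0571). Without the shallow library it was 1.94 times (exact permutation p = 0.0571). At 3 m it was 1.13 times (exact permutation p = 0.771) and at 6 m 1.45 times (exact permutation p = 0.0857). At 12 m it was 0.696 times that in sham rats (exact permutation p = 0.229).

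Against miR-146a-5p the groups were apart at 24 h and overlapped at 2 w and 1 m. Per 1000 reads of miR-146a-5p, the 4 TBI libraries at 24 h held between 56.3 and 58.0 reads of miR-155-5p, and the sham libraries 10.3 to 14.5. These 4 TBI values lay closer together than counting error alone (CV 5.39%) would place them. Their closeness therefore does not measure the spread between rats. The ratio was 4.83 times that in sham rats (exact permutation p = 0.0286, adjusted 0.10). At 2 w it was 1.09 times (TBI 10.6 to 19.3 per 1000, sham 10.03 to 19.0) and at 1 m 0.896 times, with exact permutation p of 0.600 and 0.514. Over the same intervals the log2 fold change of miR-146a-5p itself was 0.43 at 24 h, 1.24 at 2 w and 1.41 at 1 m, against 2.76, 1.36 and 1.23 for miR-155-5p.

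miR-142-5p, made by cells of the blood lineage, gave another reference. The ratio of miR-155-5p to it was 4.54 times that in sham rats at 24 h, with 243 to 364 reads of miR-155-5p per 1000 in TBI and 48.4 to 82.6 in sham libraries. It was 1.47 times at 2 w (2 of 4 TBI rats above all sham rats, exact permutation p = 0.0857), and 1.58 times at 1 m (4 of 4, exact permutation p = 0.0286, adjusted 0.10). From 2 m to 6 m it lay between 1.02 and 1.15 times, and at 12 m at 0.781 times, with exact permutation p of 0.400 or more. Without the shallow library it was 1.51 times at 2 m (2 of 3 TBI rats above all sham rats, exact permutation p = 0.143). The summed blood and immune cell markers, miR-142-5p among 6, lay between 1525 and 1797 CPM in TBI rats at 24 h and between 1455 and 2734 CPM in sham rats. The most abundant of the 6 was miR-150-5p (median 966 CPM), so the sum mostly follows it. Members went both ways at 24 h, with log2 fold changes of 0.54 for miR-142-5p and 0.17 for miR-144-5p. They were -0.29 for miR-150-5p, -0.18 for miR-486 and -0.07 for miR-451-5p, and none of these passed the threshold. The remaining member, miR-223-5p, was removed at 24 h by the filter for low counts and not tested. The log2 ratio of the mean sums was -0.17 at 24 h and 0.16 at 2 w. The highest was 0.30, at 6 m, and the value at 12 m was -0.08. None of the 6 was at 0 in all 8 libraries of an interval, and their part in the level of miR-155-5p was not tested.

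**Figure D5:**
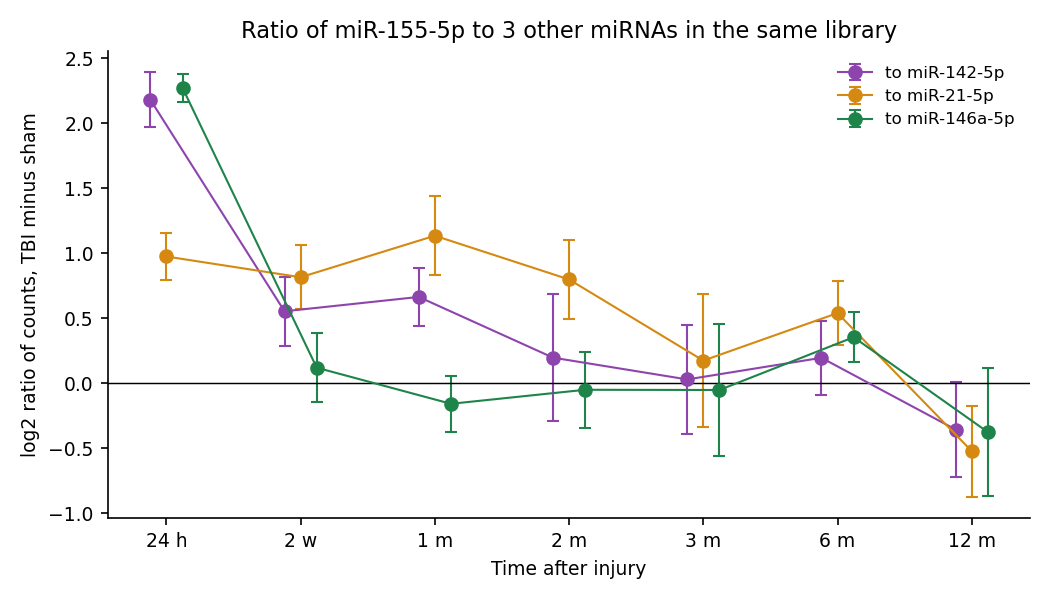
log2 ratio of miR-155-5p to miR-146a-5p, miR-21-5p and miR-142-5p counts within a library, TBI mean minus sham mean at each interval, with error bars of 1 SE from 4 TBI and 4 sham rats. At 24 h the ratio is 2.18 to miR-142-5p, 2.27 to miR-146a-5p and 0.97 to miR-21-5p on the log2 scale. The ratio to miR-21-5p is 1.13 at 1 m, where that to miR-146a-5p is -0.16. The 2 m points include the shallow library with 0 counts. Without it the 2 m values are 0.59 for the ratio to miR-142-5p, 0.95 to miR-21-5p and 0.19 to miR-146a-5p.

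Among miRNAs linked to inflammation, miR-155-5p had the largest log2 fold change at 24 h, 2 w, 2 m and 6 m, and miR-146a-5p exceeded it at 1 m and 3 m. Of the 24 listed miRNAs (miR-155-5p not among them) in the count table, 22 were tested at 24 h, and 3 passed the test there, all higher in TBI rats, where 1.72% of all 233 miRNAs passed. These were miR-21-5p (log2 fold change 1.70), miR-27a-5p (1.00), from the cluster that also makes miR-23a, and miR-20a-5p (0.81), of the miR-17-92 cluster. The median log2 fold change of the 22 tested members was -0.01 at 24 h, and over all 233 miRNAs it was also -0.01. At 1 m only miR-146a-5p of the 22 passed (log2 fold change 1.41), the one miRNA behind the 0.417% that passed there. At 2 w, 2 m, 3 m, 6 m and 12 m 0 members passed (quasi-likelihood test of edgeR, with 1 to 6 at an unadjusted p under 0.05), and the list's median log2 fold change lay between 0.01 and 0.14, beside -0.04 to 0.06 over all miRNAs. At 3 m miR-146a-5p stood at 0.44, and at 12 m all 22 tested members had a higher value than miR-155-5p.

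The miRNAs whose level moved most like miR-155-5p were named by Pearson's r of log2 CPM across the 55 libraries of at least 1000000 counts. Of 243 miRNAs they were miR-298-5p (r = 0.688), miR-142-5p (0.663), miR-27a-5p (0.651), miR-223-5p (0.647) and miR-21-5p (0.631). These libraries share the injury groups, so r mixes the group pattern with rat-to-rat variation. Across the 14 group means r was 0.903 for miR-27a-5p and 0.827 for miR-298-5p, and within groups, after each group's mean was taken off, it was 0.08 and -0.08. Within groups r was 0.36 for miR-142-5p, 0.28 for miR-223-5p and 0.32 for miR-21-5p. Of these, miR-223-5p was near the floor, with a median of 0.543 CPM and 0 counts in 5 libraries.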

How the data were processed

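Small RNA from 56 rat hippocampi (28 TBI, 28 sham, 4 per group) was made into NEBNext libraries and sequenced on a NextSeq550. The authors trimmed adapters and used miRDeep2 with miRBase to count the reads of each mature miRNA, after bcl2fastq 2.20.0.422 per the labels. The deposited values are raw counts without normalization. The genome build is not given in the sources used here. All 56 columns were used (0 left out).

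miR-155-5p and the miRNA lists were chosen with earlier results of these data known. Each interval's 8 libraries were fitted with edgeR 4.0.16 under R 4.3.3 (low counts removed by filterByExpr, TMM, quasi-likelihood test, Benjamini-Hochberg adjustment over all miRNAs tested, threshold 0.05). The quasi-likelihood fit has a newer and an older form, and the newer was taken for all fits after values of both had been seen. Contrasts between intervals and slopes over log2 days came from joint fits of the count table. Exact permutation tests used log2 CPM with prior count 2 over 35 splits, and ratios an offset of 0.5. SEs of shares and halving times are by the delta method. Likelihood ratio tests, DESeq2 1.42.0, other scalings and filters, and leaving out rats were alternatives. No replicates agreed within sampling noise (in 84 pairs, chi-square was at least 17.5 times its degrees of freedom). Fits were tested on simulated data. p-values set differences between groups against the spread between these rats. Named miRNAs beside miR-155-5p are list members that passed, the ratio references and the 5 most alike. Sequencing runs are not given in the labels. Python 3.11.15 made the tables and figures.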

Additional observations from a re-analysis of the deposited data

Results flagged for a closer look

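In 2 of 14 groups a single rat lay far from the other 3 in miR-155-5p by Dixon's test, of which chance alone gives about 1 in 20. They were sham replicate 2 at 1 m (13.2 CPM, the others at 6.22 to 7.24) and sham replicate 3 at 12 m (12.5 CPM, the others at 5.52 to 5.95). Both also had the highest choroid and ependyma markers of their group (5912 and 23565 CPM), and the part of those cells in the values was not tested.

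The injury effect on miR-155-5p differed between intervals (adjusted p = 9.75e-06 in edgeR's quasi-likelihood test over the 6 interaction terms). The difference from the 24 h effect on the log2 scale was -1.56 for the rats of 1 m and -1.65 for those of 2 m. It was -2.45 at 3 m and -2.22 at 6 m. The largest was that at 12 m, -3.20.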

How the results depend on the processing

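The fall of the injury effect from 24 h to 12 m and the rise at 24 h kept their direction and call in every setting tried. At 2 w, edgeR's likelihood ratio test (log2 fold change 1.36), DESeq2 (1.36) and the joint fit (1.35) passed the threshold. At 1 m, no filter (1.18), the filter of at least 10 counts (1.23), the likelihood ratio test (1.20), DESeq2 (1.20) and the joint fit (1.19) passed. At 2 m, the likelihood ratio test (1.05) and the joint fit (1.101) passed, and the stricter filter removed miR-155-5p. The 2 w minus 24 h difference passed with DESeq2 size factors (-1.40), without the shallow library (-1.41) and without the libraries over 10000 CPM of choroid markers (-1.39), a setting added after seeing the data. Under that setting the 3 m minus 24 h difference (-1.75) and the 2 w to 12 m slope (-0.26) no longer passed, and it moved the share left at 3 m to 10.4%. The halving time from 2 w to 2 m was 68.4 days without the shallow library, the spread difference -0.0507, and the ratio to miR-146a-5p at 2 m 0.19 there and 0.19 with an offset of 1, against -0.05. With each rat left out, the log2 fold change ranged from 1.06 to 1.57 at 2 w and from 1.04 to 1.44 at 1 m, the 2 w minus 24 h difference from -1.69 to -1.20, the later slope from -0.40 to -0.29, the halving time from 17.1 to 68.4 days and the spread difference from -0.0507 to 0.387. The older quasi-likelihood fit, added after seeing the data, gave the same calls, with larger adjusted p in several joint contrasts (2 w minus 24 h 0.201, 2 m minus 24 h 0.0408). Against 24 h, a likelihood ratio test gave 0.115 at 2 w. Over all miRNAs, the likelihood ratio test and DESeq2 called 8 and 7 at 2 w, 2 and 1 at 2 m, 0 and 1 at 3 m, and 0 and 0 at both 6 m and 12 m, where the quasi-likelihood test called 0. At 1 m they called 5 each and the joint fit 45, against 1, and at 24 h the joint fit called 8 against 4. No paired analysis was possible because the labels give no replicate number, and do not say what the numbers that end the titles count.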
